A study of Arabidopsis thaliana with 6 samples.

Results

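The chloroplast genome of Arabidopsis thaliana encodes core subunits of photosystem I (psa genes), photosystem II (psb), the cytochrome b6f complex (pet), the chloroplast ATP synthase (atp) and the NDH complex (ndh), and the large subunit of Rubisco (rbcL). The members described here are the genes of this kind to which the platform annotation assigns a probe set of their own. Of 44 genes on the list, 43 had such a probe set, out of 13350 genes with a single-gene probe set on the array. The remaining gene, ndhB, is present in 2 copies in the inverted repeat of the plastid genome, and its probe set is annotated to both copies. It was kept apart from the members, and its values are given separately.

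RNA of seedling shoots was hybridized to arrays of the Affymetrix ATH1 type. The seedlings were of the Landsberg (LER-0) ecotype and grew in darkness in canister and Petri dish hardware built for the space shuttle. There were 3 spaceflight arrays and 3 ground control arrays, and in both groups the arrays carry the replicate numbers 2, 3 and 4. No mutant, transgene or drug is named for either group, and darkness is stated in the growth description that all arrays share. Seedling age, the number of seedlings per array and whether each array had its own dish are not given in the labels. The p-values therefore reflect the spread among these arrays alone, and that spread may be technical. All values are deposited log2 expression values. RNA of a bulk shoot sample was measured, so fewer plastids or plastid-rich cells and less RNA per plastid cannot be told apart.

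In seedlings kept in darkness, plastids develop as etioplasts, which lack the green thylakoid network but already hold parts of the ATP synthase, the cytochrome b6f complex and Rubisco. Plastid genes are read by a bacterial-type polymerase whose core is plastid-encoded, on which most photosynthesis genes depend, and by a phage-type polymerase encoded in the nucleus, which reads many housekeeping genes such as those of the polymerase itself. Many plastid genes are transcribed together as polycistronic units and cut apart later, so neighbours often share a promoter.

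Plastid photosynthesis transcripts had higher mean values in flight than on the ground in 42 of 43 genes, where 46.9% of all probe sets did, but 0 of them passed limma's test, in which 4.13% of all probe sets were called higher and 1.82% lower in flight. The median log2 difference, flight minus ground, was 0.62, beside -0.02 over all 22746 probe sets tested. Of the 43 genes 41 had a mean of at least 3. Among the 8685 probe sets at or above this mean, 4736 had a difference above 0 and the median was 0.06. A fit of these alone called 8.98% of them higher, and 0 members. Most of the members' difference came with ground replicate 4, in which 40 of the 43 genes had their lowest value of the 6 arrays, as 20.6% of all probe sets did. Against ground replicates 2 and 3 alone, the median difference was 0.18. The photosynthesis genes were also set against the other plastid-encoded genes on the same array (ribosomal protein, RNA polymerase and further genes, cemA among them). On this scale their median was higher on every flight array than on every ground array, ground replicate 4 included. Singly, 27 of the 43 genes kept that order and 1 had the reverse, beside 4.49% and 5.69% of all probe sets. This reference follows plastid genes and not other genes, which limits that comparison. The individual genes with the largest differences were psbM, ndhJ, psaJ, ndhK and psbA.

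**Figure D1:**
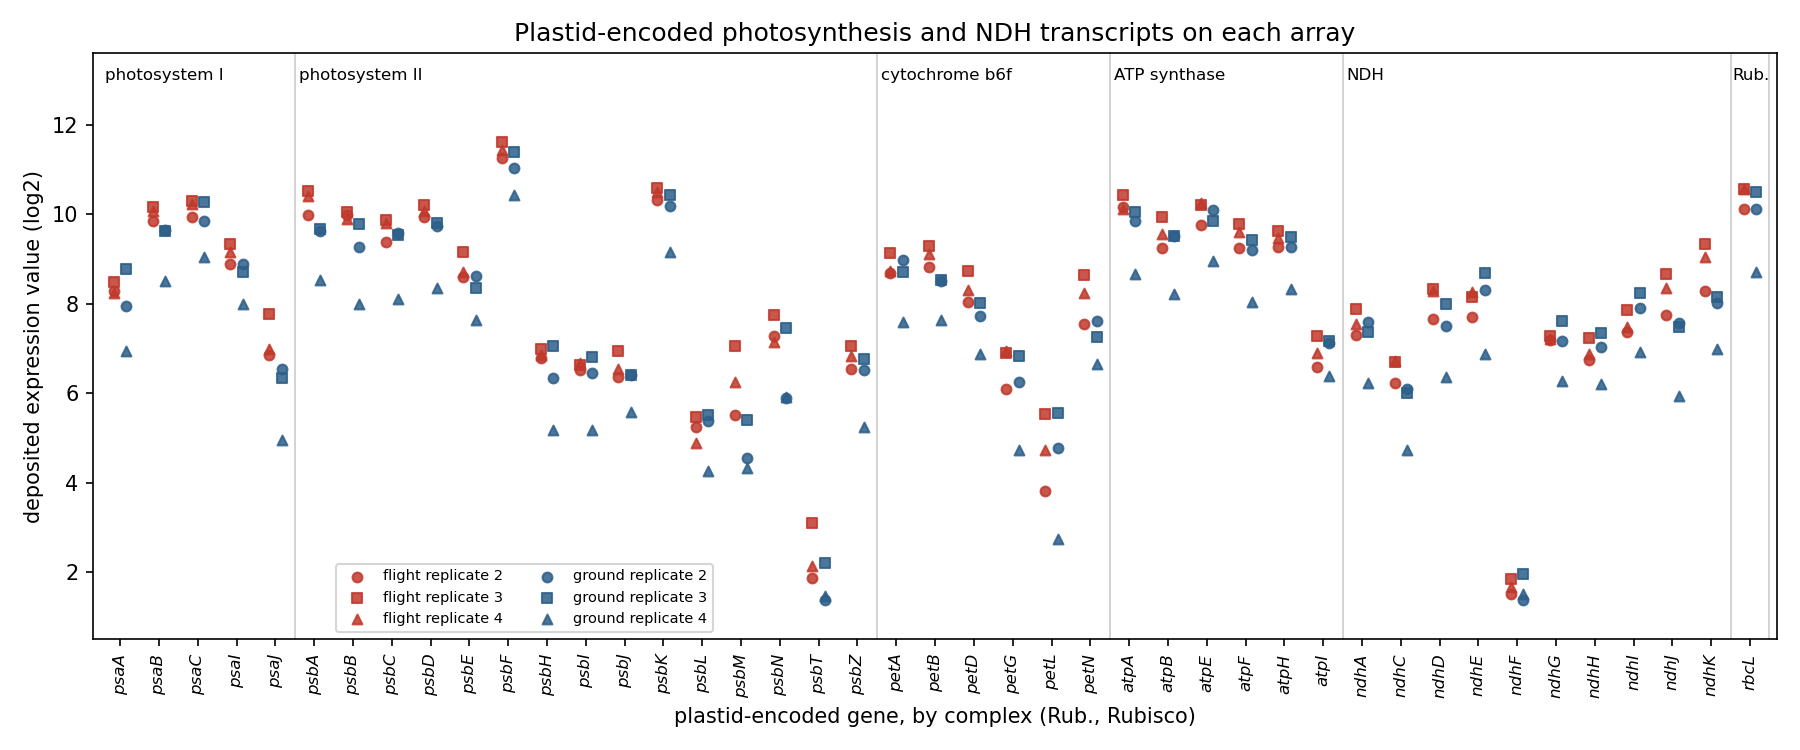
Deposited log2 expression value of each of the 43 genes on each array, grouped by complex. Red points are the 3 flight arrays and blue points the 3 ground arrays, with the marker shape giving the replicate number. Ground replicate 4 (blue triangles) is the lowest array in 40 genes, and flight replicate 3 (red squares) the highest in 30.

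The test was limma's, fitted across all probe sets, and a gene counted as called at a Benjamini-Hochberg adjusted p under 0.05. The 43 members had adjusted p from 0.0948 (psbM) to 0.977 (atpI). At an unadjusted p under 0.05, 10 members were higher and 0 lower, where 2850 and 1930 of all 22746 probe sets were. For these 10 members the 95% interval of the difference lay above 0. For the other 33 the interval held 0, which does not show that they were alike in the groups. In 12 members all 3 flight arrays lay above all 3 ground arrays, where 14.2% of all probe sets did so, and in 0 members did they lie below, where 11.8% of all probe sets did.

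The members' median value stood at 7.75, 8.63 and 8.28 in flight replicates 2, 3 and 4 and at 7.90, 8.15 and 6.88 in ground replicates 2, 3 and 4. The groups overlapped, with flight replicate 3 the highest array and ground replicate 4 the lowest. Averaged over the arrays of a group, these log2 medians came to 8.22 ± 0.44 for flight and 7.64 ± 0.67 for ground (SD, n = 3). Over single genes, ground replicate 4 lay between 0.15 and 2.42 log2 units under the mean of ground replicates 2 and 3, by a median of 1.16. The 26 other plastid-encoded protein genes moved with it. Their median was 7.83 in ground replicate 4, against 8.77 and 8.93 in ground replicates 2 and 3 and 8.45, 8.88 and 8.71 in flight.

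Control readings also differed on this array. Ground replicate 4 had a mean of 9.61 over 18 hybridization spike-in control probe sets, where the remaining 5 arrays had 10.13 to 10.20, and the cytosolic 25S rRNA control read 11.97 against 12.31 to 12.55. After each array was centred on its spike-ins, the members' median difference was 0.47, beside -0.17 over all probe sets on that scale. The array medians over all probe sets lay between 2.15 and 2.24. Mitochondrion-encoded transcripts, another organelle's RNA, had a median of 6.41 in ground replicate 4, 6.84 and 7.13 in ground replicates 2 and 3, and 5.86, 5.79 and 5.51 in flight, and of their 15 genes 5 were called lower and 0 higher in flight. The part of these differences in the plastid values was not tested.

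**Figure D2:**
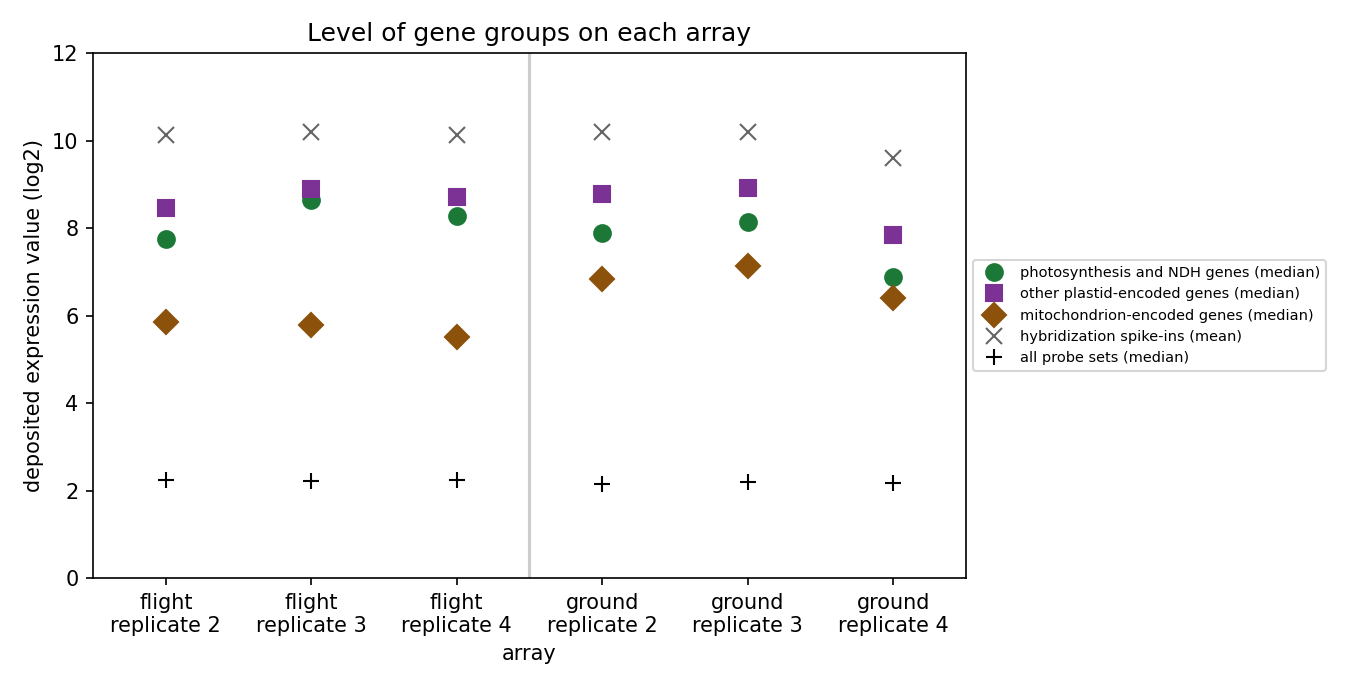
Level of gene groups on each array, as the median of the 43 photosynthesis and NDH genes, of 26 other plastid-encoded genes, of 15 mitochondrion-encoded genes and of all probe sets, and as the mean of 18 hybridization spike-ins (log2). Ground replicate 4 has the lowest plastid medians and the lowest spike-in mean, while the mitochondrial medians are lower on the 3 flight arrays than on the 3 ground arrays.

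Seed, root and shoot apex markers were read on the same arrays. Of the seed storage list 3 of 3 measured genes were high in both ground replicates 3 and 4, and the vicilin-like gene PAP85 read 10.91 and 10.57 there. Ground replicate 2 had 1.54, and the flight arrays had 1.90, 1.30 and 7.38 in the order of replicates 2, 3 and 4. On ground replicate 3 the members' median was 8.15, and 10 of the 43 members had their highest value there. With the seed storage mean as a covariate the members' median difference was 0.40. Of 3 root markers, the root hair expansin genes EXPA7 and EXPA18 stayed at or under 1.89, below the array medians, while PYK10, a beta-glucosidase of roots and hypocotyls, read 9.45 in ground replicate 4 and 10.56 to 10.87 elsewhere. CLV3, the only shoot apex marker with a named probe set, lay between 1.03 and 1.57 and so did not mark the tissue. The part of these markers in the plastid differences was not tested.

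Photosystem II, which splits water and passes its electrons to plastoquinone, had 15 members, with log2 differences from 0.15 to 1.52 and a median of 0.63. The reaction centre gene psbA, which encodes the D1 protein that is replaced repeatedly in the light, read 9.99, 10.52 and 10.41 in flight replicates 2, 3 and 4 and 9.62, 9.66 and 8.52 in ground replicates 2, 3 and 4. All flight arrays lay above all ground arrays. Its log2 difference was 1.04 (SE 0.33, 2.05-fold) (limma adjusted p 0.126), which became 0.66 without ground replicate 4. The partner reaction centre gene psbD, for the D2 protein, read 9.93, 10.20 and 10.06 in flight and 9.73, 9.80 and 8.34 on the ground, in the same order of replicates. These groups did not overlap either, with a difference of 0.77 (SE 0.38, adjusted p 0.306) that became 0.30 without ground replicate 4.

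In the inner antenna genes, flight replicate 3 was the highest and ground replicate 4 the lowest array. psbB, for the chlorophyll protein CP47, stood at 9.97, 10.05 and 9.89 in flight and at 9.27, 9.78 and 7.99 on the ground, a difference of 0.96 (SE 0.42, adjusted p 0.249). psbC, for its counterpart CP43, stood at 9.38, 9.88 and 9.80 in flight and at 9.57, 9.53 and 8.09 on the ground, a difference of 0.62 (SE 0.40, adjusted p 0.448). The psbB groups were apart, whereas flight replicate 2 of psbC lay under ground replicates 2 and 3.

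The small subunits of photosystem II held both the largest and the smallest difference of the complex. psbM encodes a single-helix subunit at the interface of the photosystem II dimer. It read 5.52, 7.05 and 6.24 in flight and 4.55, 5.40 and 4.32 on the ground, and the lowest flight array was above the highest ground array by a narrow margin. Its difference of 1.52 (SE 0.43, 95% interval 0.51 to 2.52, 2.86-fold) was the largest of the 43 and had rank 370 among all probe sets, and its limma adjusted p was 0.0948. Without ground replicate 4 it was 1.30, and over the arrays left out in turn it lay between 1.13 and 1.89. Its adjusted p was 0.0448 with a trended and robust variance prior, 0.0272 with the replicate number as a block and 0.0536 without the dim probe sets, so whether it was called depended on the fit (4.41%, 3.22% and 8.98% of probe sets were higher in these fits).

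psbL, another single-helix subunit, had the smallest difference of the complex, 0.15 (SE 0.34, adjusted p 0.860), with 5.23, 5.47 and 4.89 in flight and 5.37, 5.51 and 4.26 on the ground. psbF, which encodes the beta subunit of cytochrome b559, read 11.26, 11.62 and 11.43 in flight and 11.02, 11.39 and 10.44 on the ground (difference 0.49, SE 0.25, adjusted p 0.342). Both genes belong to the psbE-psbF-psbL-psbJ unit, and in both the groups overlapped. psbN, named after its values were seen, lies on the opposite strand between psbT and psbH and is needed to assemble photosystem II in tobacco. It was the only member called when ground replicate 3 was left out (difference 1.48, adjusted p 0.0223, with 2.73% of probe sets higher), where the left-out array read 7.46, against 5.90 and 5.92 in ground replicates 2 and 4 and 7.27, 7.75 and 7.14 in flight. With all arrays its difference was 0.96 (adjusted p 0.261). psbT read 1.37 to 3.10 over the 6 arrays, near the array medians, so whether it was expressed cannot be said.

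Photosystem I, which passes electrons to ferredoxin, had 5 members, with differences from 0.44 to 1.25 and a median of 0.59. psaA and psaB encode the paired reaction centre proteins and are transcribed together. psaB read 9.85, 10.16 and 10.06 in flight and 9.65, 9.62 and 8.51 on the ground, with groups apart and a difference of 0.76 (SE 0.31, adjusted p 0.222). psaA read 8.28, 8.48 and 8.24 in flight and 7.95, 8.77 and 6.95 on the ground, with the highest value of all on a ground array. Its difference of 0.44 (SE 0.42, adjusted p 0.617) became -0.03 without ground replicate 4, where that of psaB was 0.39.

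psaJ, for a small subunit beside the one that docks plastocyanin, had the largest difference of photosystem I. It stood at 6.84, 7.78 and 6.99 in flight and at 6.55, 6.34 and 4.96 on the ground, so that the groups did not overlap. The difference was 1.25 (SE 0.45, 2.38-fold) (adjusted p 0.167) and became 0.76 without ground replicate 4. psaC, which carries the terminal iron-sulfur clusters, had the smallest at 0.44 (SE 0.31, adjusted p 0.490), with 9.93, 10.30 and 10.23 in flight and 9.85, 10.26 and 9.04 on the ground.

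The cytochrome b6f complex, which links the photosystems, had 6 members and a median difference of 0.77, from 0.33 to 0.96. petB, for cytochrome b6, read 8.81, 9.28 and 9.10 in flight and 8.50, 8.53 and 7.63 on the ground. The groups were apart, and the difference of 0.84 (SE 0.27) had an adjusted p of 0.132. petA, for cytochrome f, read 8.69, 9.14 and 8.73 in flight and 8.98, 8.70 and 7.59 on the ground, with a difference of 0.43 (SE 0.35, adjusted p 0.564) that became 0.01 without ground replicate 4.

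The small subunit genes of this complex ranged widely. petN, whose short protein is needed for the complex to accumulate in tobacco, had the largest difference, 0.96 (SE 0.34, adjusted p 0.162), with 7.55, 8.63 and 8.23 in flight and 7.61, 7.26 and 6.66 on the ground. petL had the smallest, 0.33 (SE 0.74, adjusted p 0.856), and was the most variable of the named members, with 3.80, 5.53 and 4.73 in flight and 4.77, 5.56 and 2.75 on the ground. Its 95% interval ran from -1.41 to 2.07, and without ground replicate 4 its difference was -0.48.

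The chloroplast ATP synthase, which makes ATP from the proton gradient, had 6 members, with differences from 0.02 to 0.72 and a median of 0.46. atpA, for the alpha subunit of the catalytic head, read 10.16, 10.43 and 10.12 in flight and 9.85, 10.04 and 8.67 on the ground, and its groups were apart (difference 0.72, SE 0.35, adjusted p 0.308). atpB, for the beta subunit, read 9.24, 9.93 and 9.54 in flight and 9.50, 9.51 and 8.22 on the ground, a difference of 0.49 (SE 0.37, adjusted p 0.529). atpI, for subunit a of the membrane part, read 6.58, 7.28 and 6.89 in flight and 7.12, 7.17 and 6.38 on the ground. The difference of atpI was 0.02 (SE 0.27, adjusted p 0.977) and turned negative under several other settings.

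rbcL encodes the catalytic subunit of Rubisco, the carbon-fixing enzyme. It read 10.12, 10.56 and 10.56 in flight and 10.11, 10.49 and 8.71 on the ground. Flight and the ground replicates 2 and 3 spanned the same range, and ground replicate 4 stood apart below them. The difference was 0.65 (SE 0.44, adjusted p 0.475), and 0.11 without that array.

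The NDH complex, which feeds electrons from ferredoxin back to plastoquinone in cyclic flow, had 10 members with differences from -0.12 to 1.26. Their median of 0.36 was the lowest of the 5 multi-gene complexes. Without the dim probe sets, ndhF among them, it was 0.51, above the 0.46 of ATP synthase. The 3 largest differences among the 10 lay in genes that sit side by side in the plastid genome. ndhC, ndhK and ndhJ are neighbours that are transcribed together. ndhJ read 7.75, 8.66 and 8.35 in flight and 7.57, 7.48 and 5.94 on the ground, a difference of 1.26 (SE 0.46, 2.39-fold, adjusted p 0.174). ndhK read 8.28, 9.33 and 9.05 in flight and 8.01, 8.15 and 6.99 on the ground, a difference of 1.17 (SE 0.38, 2.25-fold, adjusted p 0.133). In both genes, and in ndhC with a difference of 0.94 (adjusted p 0.210), every flight array was above every ground array. Without ground replicate 4 the 3 differences lay between 0.50 and 0.81.

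The other 7 ndh members gave smaller differences. The 6 ndh genes of the unit from ndhH to ndhD in the small single-copy region had a median of 0.15, from -0.12 in ndhI to 0.80 in ndhD, and in 0 of the 6 were the groups apart. Without ground replicate 4 their median was -0.20, and 2 of the 6 were above 0. The difference between these sets of ndh genes was not tested. ndhF, for a proton-pumping membrane subunit, read 1.37 to 1.95 on all arrays, below the array medians, so its difference of 0.07 (SE 0.19, adjusted p 0.884) cannot be read as a difference in expression. The probe set of both ndhB copies read 7.83, 8.29 and 7.77 in flight and 7.28, 7.31 and 5.92 on the ground, with groups apart and a difference of 1.13 (SE 0.38, adjusted p 0.150).

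**Figure D3:**
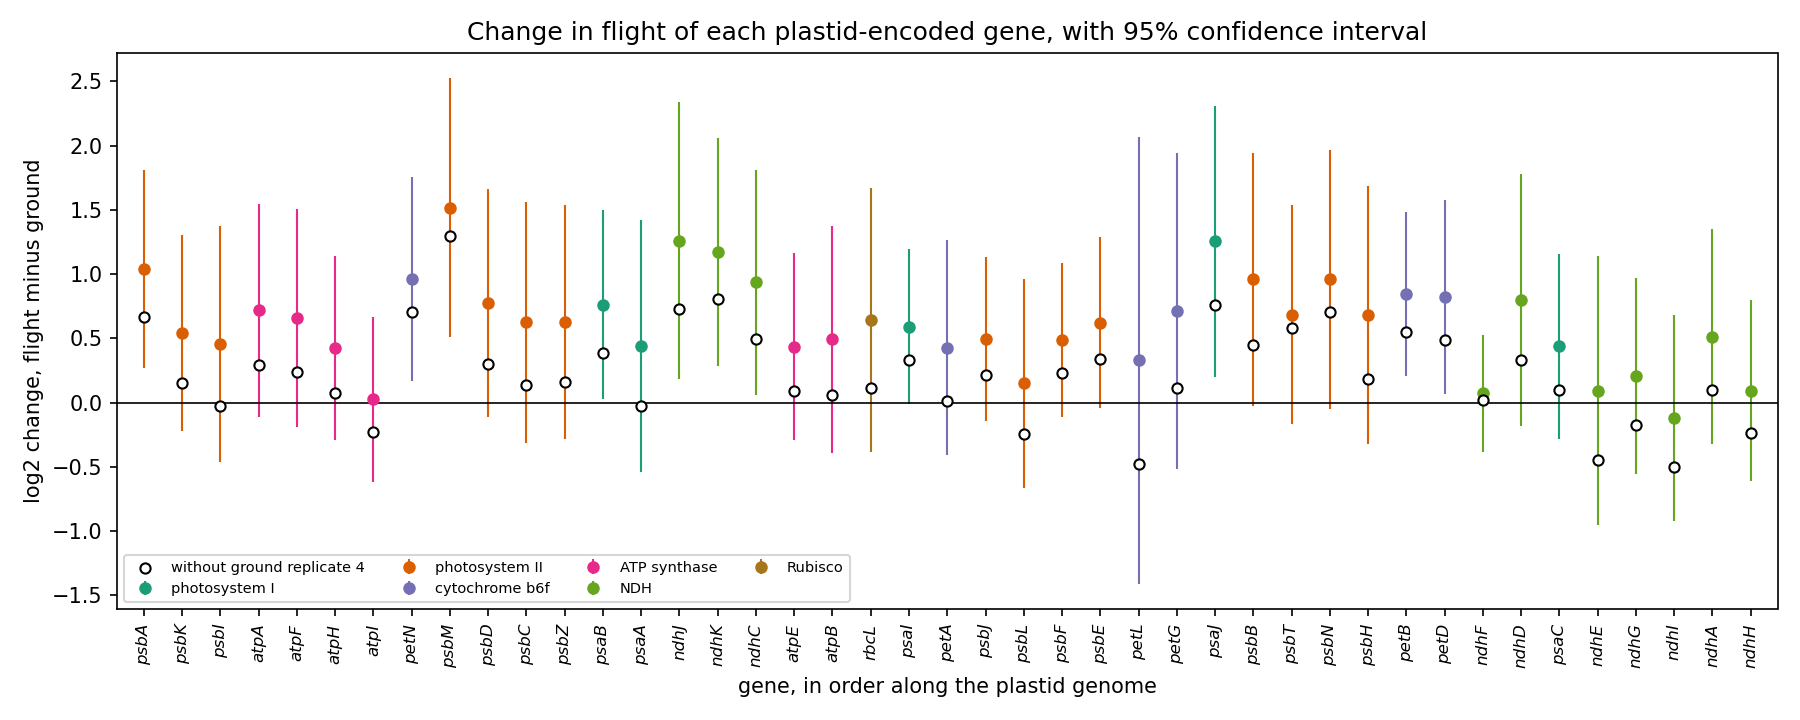
Log2 difference, flight minus ground, of each of the 43 genes in their order along the plastid genome of the RefSeq annotation, coloured by complex, with the 95% confidence interval from limma. White points give the difference without ground replicate 4, which is below 0 in 9 genes and lies between 0.50 and 0.81 in ndhJ, ndhK and ndhC.

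Neighbouring genes of a transcription unit differed by amounts that varied from unit to unit. In the psbB-psbT-psbH-petB-petD unit the differences lay between 0.68 and 0.96, a span of 0.28 over 5 genes, although the unit joins genes of separate complexes. The span was 0.15 in psbD-psbC-psbZ, 0.057 in atpB-atpE and 0.32 in ndhC-ndhK-ndhJ. It was 0.69 in atpI-atpH-atpF-atpA and 0.93 in petL-petG-psaJ, with 0.33 in petL, 0.71 in petG and 1.25 in psaJ. petN and psbM, neighbours on the genome, had the largest difference of the cytochrome b6f complex and of photosystem II. These units are taken from general knowledge of land plant plastids, and members of a unit are not independent readings.

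Set against the other plastid-encoded genes on the same array, the difference between the groups rested less on ground replicate 4. The median of the members minus the median of the 26 other plastid-encoded genes was -0.70, -0.25 and -0.44 in flight replicates 2, 3 and 4 and -0.87, -0.78 and -0.96 in ground replicates 2, 3 and 4. The sign of these values has no meaning, because they set different probe sets against each other, but their differences between arrays do. The flight mean was -0.46 ± 0.23 and the ground mean -0.87 ± 0.09 (log2, SD, n = 3), 0.41 apart, and 0.36 apart without ground replicate 4. In the latter case the array medians differed by 0.20 for the members and by -0.16 for the reference genes, flight minus ground. No test was made of this score, since the members were chosen with results of these data known.

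The same order held within most complexes. Relative to the other plastid genes, the complex median was 0.39 higher in flight for photosystem I, 0.58 for photosystem II, 0.72 for cytochrome b6f, 0.33 for ATP synthase, 0.28 for NDH and 0.47 for Rubisco. Against ground replicates 2 and 3 alone these values were 0.45, 0.56, 0.76, 0.28, 0.19 and 0.28 in the same order. All flight arrays were above all ground arrays in each of these except photosystem II, where flight replicate 4 at -1.58 lay under ground replicate 3 at -1.47. On this scale 27 of the 43 members had flight arrays all above ground arrays and 1, ndhI, all below. Among all probe sets 4.49% and 5.69% did so, but this reference follows the array-to-array movement of plastid genes and not that of other genes. Of the 26 reference genes themselves 4 were above and 2 below. In limma after this centring, 0 members were called with all arrays (lowest adjusted p 0.124, psbM; 1.20% of all probe sets higher), and psbM was called without ground replicate 4 (adjusted p 0.0245; 4.39% higher).

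**Figure D4:**
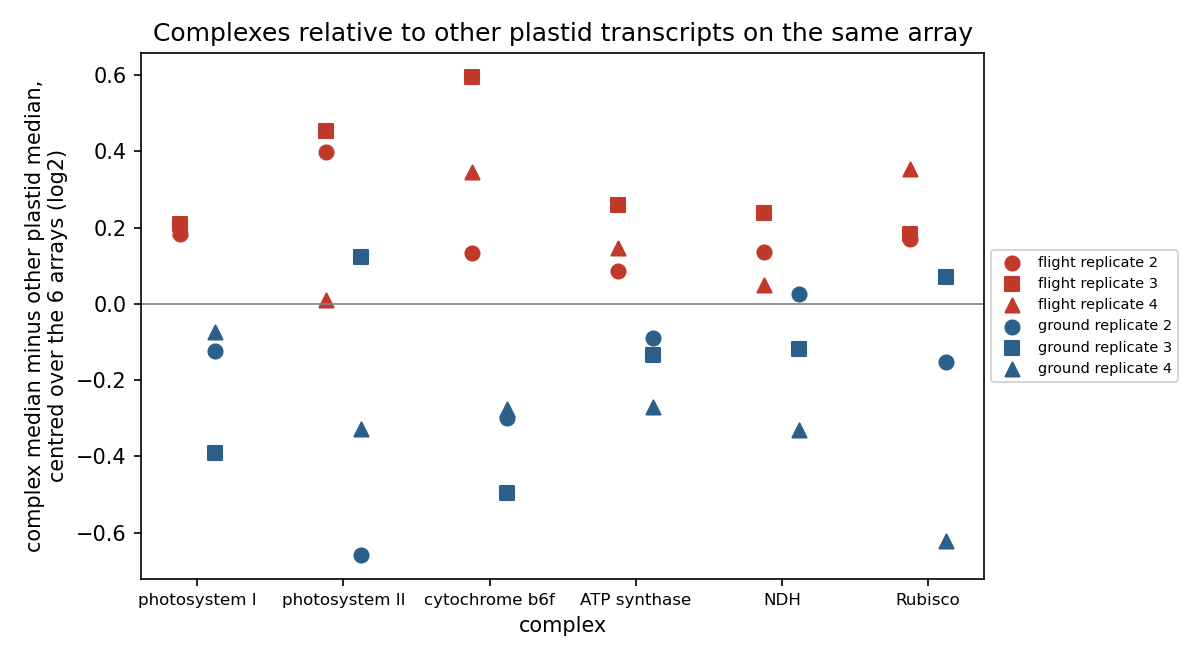
Median of each complex minus the median of the 26 other plastid-encoded genes on the same array, shown as the deviation from its mean over the 6 arrays (log2). Red points are flight and blue points ground arrays, with the marker shape giving the replicate. Flight arrays lie above ground arrays in every complex except photosystem II, where flight replicate 4 and ground replicate 3 cross.

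The reference genes themselves had a median difference of 0.24 with all arrays and -0.17 without ground replicate 4. Of the 26, 0 were called in either direction. The plastid RNA polymerase genes rpoA, rpoB, rpoC1 and rpoC2 had a median of -0.11 and the 15 ribosomal protein genes one of 0.02. Of the 26 reference genes 17 had a difference above 0. They included 8 of the 15 ribosomal protein genes, 2 of the 4 polymerase genes and all the remaining reference genes. The largest differences among the 26 were 1.21 in rps16 (adjusted p 0.0850), 0.81 in rps4 (0.164) and 0.71 in cemA (0.462), for an envelope membrane protein. Of the 26, rps16 alone was above 1, beside 5 of the 43 photosynthesis and NDH genes and 949 of all 22746 probe sets. Counts this small do not tell the sets of plastid genes apart.

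Nuclear partners of these complexes were sparsely covered, since the annotation gave few of the listed genes a single-gene probe set. Listed genes may lie among the 8730 probe sets without a named gene, which were not read for them. Of 2 nuclear photosystem II subunit genes 0 were called in the main test, with differences of 1.82 in PSBY (adjusted p 0.0624) and 1.29 in PSBW (0.0792). In both, the flight arrays were all above the ground arrays. Both were called without the dim probe sets, with the trended and robust prior, and after centring on other plastid genes without ground replicate 4. Only 1 was called with array weights, the replicate block, spike-in centring, plastid centring with all arrays, or without ground replicate 2 or 3. The remaining fits called 0. Of 3 genes for electron carriers, ATP synthase and Rubisco 1 was called: ATPC1, the gamma subunit of the chloroplast ATP synthase, rose by 1.65 (SE 0.33, adjusted p 0.0342), with 3.91, 4.47 and 4.81 in flight and 3.37, 2.45 and 2.41 on the ground. That call was lost with the replicate block (adjusted p 0.0738), quantile normalization (0.0517), the seed storage covariate (0.104), centring on other plastid genes (0.0601) and each left-out array except ground replicate 2 (0.0536 to 0.130). RCA, for Rubisco activase, had a difference of 0.59 (adjusted p 0.301) and ATPC2 one of 0.11 (0.910). Of 2 nuclear photosystem I genes 0 were called, with 1.36 in PSAE-1 (0.253) and 0.24 in PSAN (0.616).

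No antenna or nuclear NDH gene on the lists was called. The 3 antenna genes with a named probe set, LHCB4.1, LHCB4.2 and LHCB4.3, had differences of -0.35, -0.19 and -0.20. The 8 measured nuclear genes listed for the NDH complex had a median of -0.01, from -0.27 in CRR22 to 0.51 in CRR41 (adjusted p 0.261). Most of their readings were near or under the array medians. Of 6 chlorophyll synthesis genes 0 were higher and 1 lower: HEMA2, an isoform of the enzyme that opens the pathway, had a difference of -0.60 (SE 0.12, adjusted p 0.0367). All its readings, 1.46 to 2.15, lay under the medians of their arrays, so this cannot be read as a difference in expression. The call was lost with the replicate block (0.0878), the seed storage covariate (0.0885), spike-in centring (0.139), centring on other plastid genes with all arrays (0.901) and without ground replicate 4 (0.446), and any 1 array left out (0.0574 to 0.130). PORB, the light-dependent protochlorophyllide reductase, had a difference of 0.69 (adjusted p 0.551), with 2.40 in ground replicate 4 and 3.31 to 4.71 elsewhere. HYH, the only gene of the light regulator list with a named probe set, had one of 0.01 (0.983). On the list of plastid transcription and RNA factors, 0 genes had such a probe set.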

How the data were processed

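The table used holds log2 expression values as deposited by the authors for 22810 probe sets on 6 arrays. RMA, PLIER and MAS5 appear in the submitters' processing notes with no role. Not given in the sources used here are the method behind this table, its background correction and any detection calls. The log base was read from the range of the values. Per the labels' protocols, RNA was amplified over the whole transcriptome and biotin-labelled.

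The 64 control probe sets were left out. Genes were named from the platform annotation (13513 probe sets with 1 gene, 503 with several and 8730 with none, unnamed here), and plastid location and gene order from RefSeq (TAIR10.1, accession Columbia). No coordinates are given, since no build is named with the values. Each member had 1 probe set. The groups were fitted in limma 3.58.1 (R 4.3.3; lmFit, eBayes, two-sided, no covariates), with p-values adjusted over all 22746 probe sets and called at an adjusted p under 0.05. SE and 95% intervals are limma's. The procedure was tested on simulated data.

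The members, lists and alternatives were chosen with earlier results of these data known. Values on all arrays are printed for the 4 members with the largest absolute difference, the largest and smallest of each complex, core subunits and the members with the highest and lowest mean; others named are marked. Of each comparison list at most 3 genes were to be named, called ones first; the polymerase genes, ndh neighbours and tissue markers given beyond that were named after their values were seen. Figures were drawn with matplotlib 3.10.9.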

Additional observations from a re-analysis of the deposited data

How the results depend on the processing

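The SD between arrays of a group, ground replicate 4 included, was 0.57. Beside a members' median difference of 0.62 that is a loose limit. The members' median difference stayed above 0 and moved by less than this SD in all 16 other fits, 2 of them chosen after the data were seen. It did so too, at 0.39, when the median of the other plastid genes was subtracted. With 1 array left out it lay between 0.18 and 0.92, and the same ranges were 0.33 to 0.88 for photosystem I, 0.23 to 0.92 for photosystem II, 0.301 to 1.002 for cytochrome b6f, 0.083 to 0.69 for ATP synthase, 0.060 to 0.58 for NDH and 0.11 to 1.01 for Rubisco; each lowest value came without ground replicate 4. Of the members, 1 was higher with the replicate block, the trended and robust prior, an adjusted p under 0.10 and the added centring on other plastid genes without ground replicate 4 (psbM each time), and with 1 array left out 0 to 1 was higher and 0 lower. Over all probe sets, the 939 higher and 413 lower became 1532 and 750 at an adjusted p under 0.10, 415 higher with the seed storage covariate, 470 after spike-in centring and 273 after centring on other plastid genes, 267 lower after that centring without ground replicate 4, and 188 to 1124 higher and 83 to 782 lower with 1 array left out. Some named members changed sign. atpI had -0.016 with array weights, -0.032 with median centring, -0.15 with the seed storage covariate, -0.13 with spike-in centring and -0.15 after centring on other plastid genes (-0.068 without ground replicate 4). psbL had -0.14 with the seed storage covariate, -0.0049 with spike-in centring and -0.027 after centring on other plastid genes (-0.084 without ground replicate 4), ndhF had -0.083 with spike-in centring and -0.10 after centring on other plastid genes, and petL had -0.32 in the latter without ground replicate 4. With 1 array left out the ranges were -0.23 to 0.19 for atpI, -0.049 to 0.24 for ndhF, -0.48 to 0.93 for petL, -0.031 to 0.88 for psaA and -0.25 to 0.38 for psbL. The cause was not tested. The replicate numbers share no stated source, so the block pairs only numbers. Deviations of same-numbered arrays correlated at 0.20, -0.03 and 0.27. Flight replicates 2 and 4 correlated best with the ground replicate of their own number, and flight replicate 3 with ground replicate 2. Each member has 1 probe set, so averaging probe sets was not run. The number of arrays and readings near the array medians (psbT, ndhF) limit what can be seen.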
